A study of Mus musculus with 4 samples.

Results

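Myc and 36 genes of ribosome biogenesis were followed in dual-colour arrays of the mouse colon. The 37 members were picked by name and function, as the transcription factor Myc together with nucleolar proteins, small nucleolar ribonucleoproteins (snoRNPs), RNA polymerase I subunits and maturation factors of the small and the large ribosomal subunit. The choice used no threshold on a measured value, but it was made with earlier results of these data known. All 37 were measured in both comparisons of the study, among 15908 genes in the Rspo3 KO comparison and 16558 in the Axin2 comparison.

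Myc is a basic helix-loop-helix factor that pairs with Max, binds E-box sequences in promoters and raises the transcription of genes for cell growth, and in the intestinal crypt it is a well-known target of Wnt signalling. Ribosome biogenesis starts in the nucleolus, where RNA polymerase I transcribes a long precursor rRNA. SnoRNPs guide its chemical modification, the small subunit processome folds and cleaves it, and separate sets of assembly factors mature the 40S and 60S particles. Proliferating cells at the crypt base make many ribosomes, and differentiated cells towards the surface make fewer.

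The animals were young adult male C57BL/6 mice. In the first experiment, Myh11CreErt2/Rspo3 fl/fl mice (Rspo3 KO) were set against Myh11CreErt2/Rspo3+/+ littermates (control) 2 weeks after tamoxifen at 4 mg per 25 g body weight, with RNA from the distal colon and 1 mouse in each channel. Both genotypes carried the tamoxifen-inducible Cre and received tamoxifen, and the deletion was restricted to cells in which the Myh11 promoter is active, so other cells of the colon kept an intact Rspo3 gene. The 2 arrays held 2 independent pairs of mice, with the dyes reversed between the pairs. In the second experiment, Axin2CreErt2/Rosa26-tdTomato mice received tamoxifen 24 h before sacrifice, and tdTomato-positive (Axin2+) and tdTomato-negative (Axin2-) epithelial cells were sorted and pooled from 3 mice. The 2 arrays held the same 2 pools with the dyes swapped, which makes 1 biological replicate, and no test was possible there.

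A value below is a log2 ratio of background-corrected, normalised intensities, Rspo3 KO over control or Axin2+ over Axin2-, so that 1 is a doubling. A gene was called past 1.5-fold when the mean of its 2 arrays exceeded that size and both arrays had the same direction. Between 53.1% and 60.3% of gene spots were well above background in each channel. Over all genes, the ratios of the 2 Axin2 arrays correlated with r = 0.92, and those of the 2 Rspo3 KO pairs with r = 0.03. All 8 epithelial marker genes were well above background in the sorted cells. Of non-epithelial genes, 2 of 6 for fibroblasts and 3 of 6 for smooth muscle were measured there. So were 5 of 7 B cell, 4 of 6 T cell and 5 of 7 macrophage genes. The whole colon had 6 of 8 epithelial, 6 of 6 fibroblast and 5 of 6 smooth muscle genes measured. Its measured immune genes were 4 of 7 for B cells, 3 of 6 for T cells and 7 of 7 for macrophages. The targeted gene could not be checked in both pairs. Of its 2 probes, 1 stood well above background on KO array 2 alone, in the Rspo3 KO and the control channel. The other did so on no array. Lgr5, a receptor for R-spondins and stem cell marker, was well above background in both control channels and in neither Rspo3 KO channel. In the sorted cells, the label check held for Axin2 itself (1.35 and 1.29 on the 2 arrays), for Lgr5 (1.5 and 1.56), and for the surface enterocyte keratin Krt20 (-3.01 and -2.77).

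A promoter window was on hand in RefSeq (build GRCm38.p6) for 32 of the 37 members, from 250 bases before to 50 bases after the gene start. Myc, Npm1, Fbl, Rrp12 and Bop1 had no entry. The canonical E-box CACGTG, which is its own reverse complement and so reads the same on both strands, was found in 8 of the 32, 25.0%, against 8.09% of the 27025 genes in the table. Counted by window, it was in 8 of 36, 22.2%, against 7.15% of all 32851 windows of that length. The 8 stretches are shown because this is the sequence Myc and Max are known to bind. The E-box is in capitals, and each stretch is written 5′ to 3′ on the strand of the gene.
Nop2 (chr6:125131813-125131838, plus strand): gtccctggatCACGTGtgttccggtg
Utp18 (chr11:93885771-93885796, minus strand): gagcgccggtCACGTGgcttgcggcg
Pes1 (chr11:3963967-3963992, plus strand): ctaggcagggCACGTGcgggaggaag
Wdr43 (chr17:71616222-71616247, plus strand): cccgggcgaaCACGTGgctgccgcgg
Tsr1 (chr11:74898094-74898119, plus strand): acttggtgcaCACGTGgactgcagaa
Ltv1 (chr10:13193094-13193119, minus strand): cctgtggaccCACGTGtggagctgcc
Utp20 (chr10:88826765-88826787, minus strand): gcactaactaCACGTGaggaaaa
Mybbp1a (chr11:72441357-72441376, plus strand): cttctgagccCACGTGtttg
The E-box began 60 bases before the gene start in Nop2 and 20 bases before it in Utp18. In the other members it lay within the first bases of the transcript, starting at base 3 in Pes1, 18 in Wdr43, 25 in Tsr1, 29 in Ltv1, 38 in Utp20 and 41 in Mybbp1a. A match is a description of the letters only, and binding was not measured.

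Axin2+ cells had higher levels of Myc and of most ribosome biogenesis genes than Axin2- cells. Of the 37 members, 11 were past 1.5-fold higher and 0 were lower, where 7.94% of all measured genes were past that size higher and 6.75% lower. On both arrays, 33 members were higher and 1 was lower, against 41.9% and 40.9% of all measured genes. The median log2 ratio of the members was 0.44 on array 1 and 0.42 on array 2, and that of all measured genes was 0.026 and -0.02. The members ranged from -0.051 (Bop1) to 1.46 (Ncl).

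**Figure D1:**
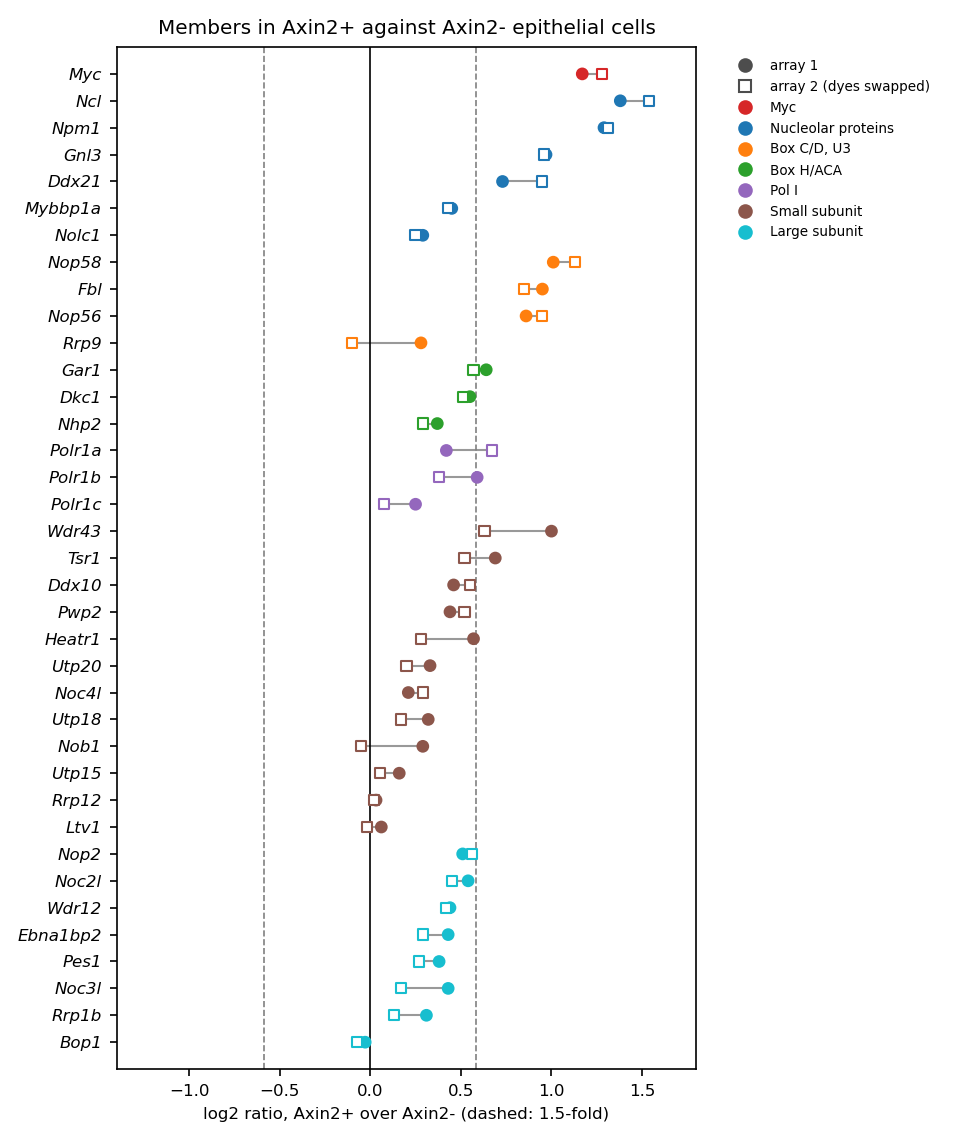
Log2 ratio (x axis) of each of the 37 members (y axis, ordered by role and by mean) in Axin2+ over Axin2- cells. Filled circles are array 1, open squares array 2 with the dyes swapped, colours give the role, and dashed lines mark 1.5-fold. Myc, the nucleolar proteins Ncl, Npm1, Gnl3 and Ddx21 and the box C/D proteins Nop58, Fbl and Nop56 lie right of the dashed line on both arrays, and most of the other members lie between 0 and that line.

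Myc, the transcription factor of the group, had a normalised log2 level of 8.91 in Axin2- and 10.09 in Axin2+ cells on array 1, and of 8.83 and 10.11 on array 2. Its ratio was thus 1.17 and 1.28, a mean of 1.22 or 2.34-fold. The 2 dimmer Myc probes were also higher on both arrays, at 0.92 and 1.03 and at 0.66 and 0.41, so the size of the difference depended on the probe and its direction did not.

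Among the nucleolar proteins, Ncl and Npm1 had the largest ratios of all members. Ncl, which encodes nucleolin, a chaperone of precursor rRNA, had a log2 level of 12.50 in Axin2- and 13.88 in Axin2+ cells on array 1, and of 12.56 and 14.10 on array 2, a mean ratio of 1.46 ± 0.114 (SD of the 2 arrays). Its 4 probes ranged from 0.80 to 1.56. Npm1, which encodes nucleophosmin, a nucleolar chaperone and export factor of ribosomal particles, had levels of 13.47 and 14.76 on array 1 and of 13.71 and 15.02 on array 2, a mean ratio of 1.30 ± 0.01. In both genes the Axin2+ level of either array was above both Axin2- levels. Gnl3 (nucleostemin, a nucleolar GTPase) had ratios of 0.97 and 0.96. Ddx21, an RNA helicase that couples rRNA transcription and processing, had 0.73 and 0.95. Its other probes were lower in size, at 0.13 and 0.43 and at 0.44 and 0.42, and a gene mean over probes would be smaller. Mybbp1a, a nucleolar protein that binds Myb and represses rRNA transcription, and Nolc1, a snoRNP chaperone, were higher on both arrays without reaching 1.5-fold (means 0.44 and 0.27). The median of these 6 genes was 0.90.

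Among the snoRNP genes, the proteins of the methylation-guiding box C/D particle stood higher than those of the pseudouridine-guiding box H/ACA particle. Nop58, a core protein of the former, had ratios of 1.01 and 1.13. The rRNA methyltransferase gene Fbl (fibrillarin) had 0.95 and 0.85. Nop56, the partner of Nop58, had 0.86 and 0.95. Rrp9, which binds U3 snoRNA, went in opposite directions at 0.28 and -0.10. Of the box H/ACA genes, Gar1 passed 1.5-fold at 0.64 and 0.57. The pseudouridine synthase gene Dkc1 (dyskerin) had 0.55 and 0.51, and the core protein gene Nhp2 had 0.37 and 0.29. The only probe named Fbl is listed on chromosome 17 in the array annotation (mm9), whereas the RefSeq gene is on chromosome 7, so a copy elsewhere may share its signal.

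**Figure D2:**
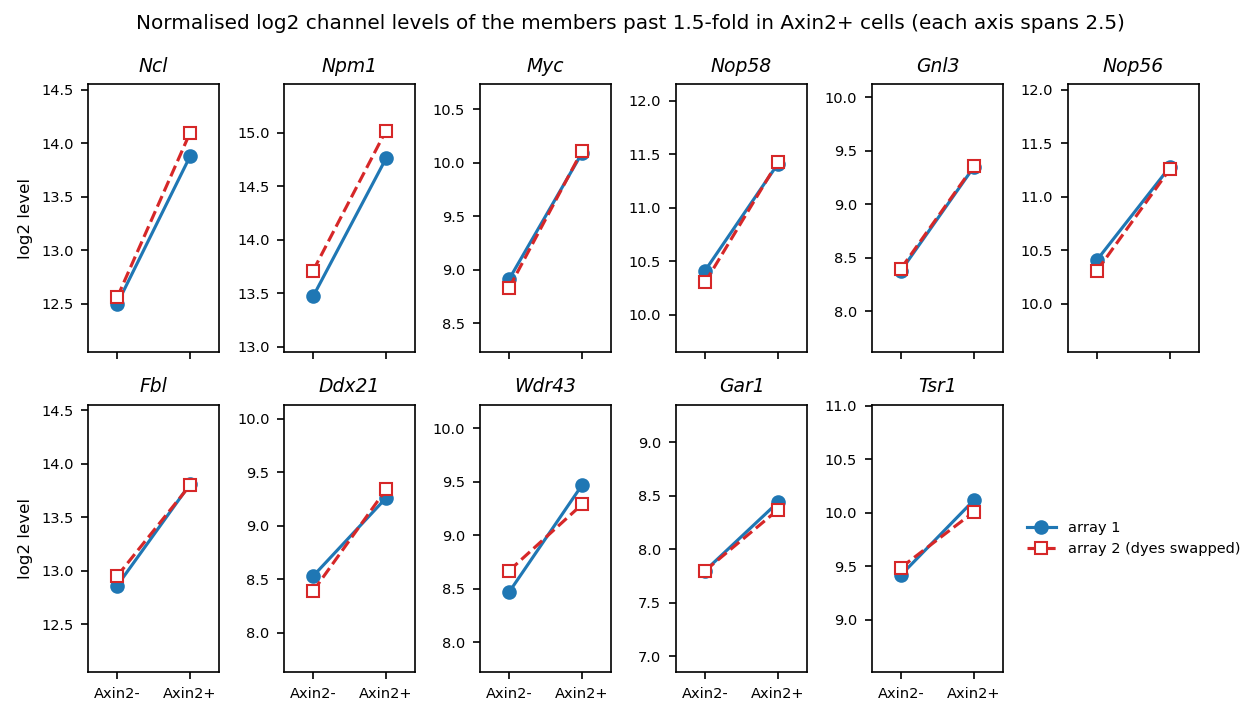
Normalised log2 channel level (y axis, each spanning the same range) in Axin2- and Axin2+ cells (x axis) for the 11 members past 1.5-fold, with 1 line per array. In each of the 11 genes both lines rise from Axin2- to Axin2+, with mean ratios from 0.61 (Gar1 and Tsr1) to 1.46 (Ncl).

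On its brightest probe, none of the 3 RNA polymerase I subunits was past 1.5-fold, although all were higher on both arrays. The catalytic subunit gene Polr1a had a mean ratio of 0.55 ± 0.179, and the other large subunit, Polr1b, had 0.49 ± 0.149. The dimmer Polr1a probe had 0.60 and 1.06, past 1.5-fold on both arrays, so that result depended on the probe. The second measured Polr1b probe had 0.066 and 0.073. Polr1c, shared with RNA polymerase III, had 0.16 ± 0.119.

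Of the 12 genes for the small subunit processome and 40S maturation, 2 were past 1.5-fold. Wdr43, a component of the processome, had ratios of 1.0 and 0.63. Tsr1, a GTPase-like factor of late 40S maturation, had 0.69 and 0.52. The processome genes Ddx10 (0.50), Pwp2 (0.48), Heatr1 (0.42), Utp20 (0.26), Noc4l (0.25), Utp18 (0.24), Utp15 (0.11) and Rrp12 (0.026), the last a factor of subunit export, had smaller mean ratios with the same sign on both arrays. The endonuclease gene Nob1 (0.29 and -0.049) and Ltv1 (0.061 and -0.016), an export and assembly factor of the 40S subunit, went in opposite directions. The median of the 12 was 0.26.

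The 8 large subunit factors included no gene past 1.5-fold. The rRNA methyltransferase gene Nop2 had a mean ratio of 0.54 and Noc2l, a subunit of the Noc complexes, 0.50. Pes1, Bop1 and Wdr12 form the PeBoW complex, and they did not share 1 value. Wdr12 had a mean ratio of 0.43, Pes1 of 0.32 and Bop1 of -0.051. The brightest Wdr12 probe is listed on chromosome 7 rather than on chromosome 1, and its probes on chromosome 1 gave 0.32 and 0.31 and 0.029 and 0.093. Ebna1bp2 (0.36), Noc3l (0.30) and Rrp1b (0.22), all assembly factors of the 60S particle, completed the set, with a median over the 8 of 0.34.

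The direction was shared by most probes, and the size was not. Of 68 probes for the 37 members, 65 were measured, and 59 of them were higher on both arrays while 1 was lower on both. Counted by gene, 41.9% of all measured genes were higher on both arrays and 40.9% lower. Several probes of 1 gene on the same arrays are not separate evidence. In 18 of the 20 members with several measured probes, every such probe was higher on both arrays, and the exceptions were Heatr1 and Rrp1b. Of the 11 genes past 1.5-fold, Fbl, Gar1, Gnl3 and Nop58 had 1 probe each, and the call for Tsr1, Wdr43 and Ddx21 rested on the brightest probe, since their other probes gave 0.42 and 0.061 in Tsr1, 0.47 and 0.35 in Wdr43 and the values above in Ddx21. Members with brighter probes had larger ratios (Spearman's rho 0.51 over 37 genes that share the same arrays, and 0.31 with the ratios of the extraction software). With median centring in place of loess, the measured genes as a whole stood at 0.75 on array 1 and at -0.72 on array 2, so only 1 member met the rule of the same direction on both arrays. The dye swap cancelled this offset in the mean, in which the members had a median of 0.43 and 10 of 37 were past 1.5-fold higher.

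**Figure D3:**
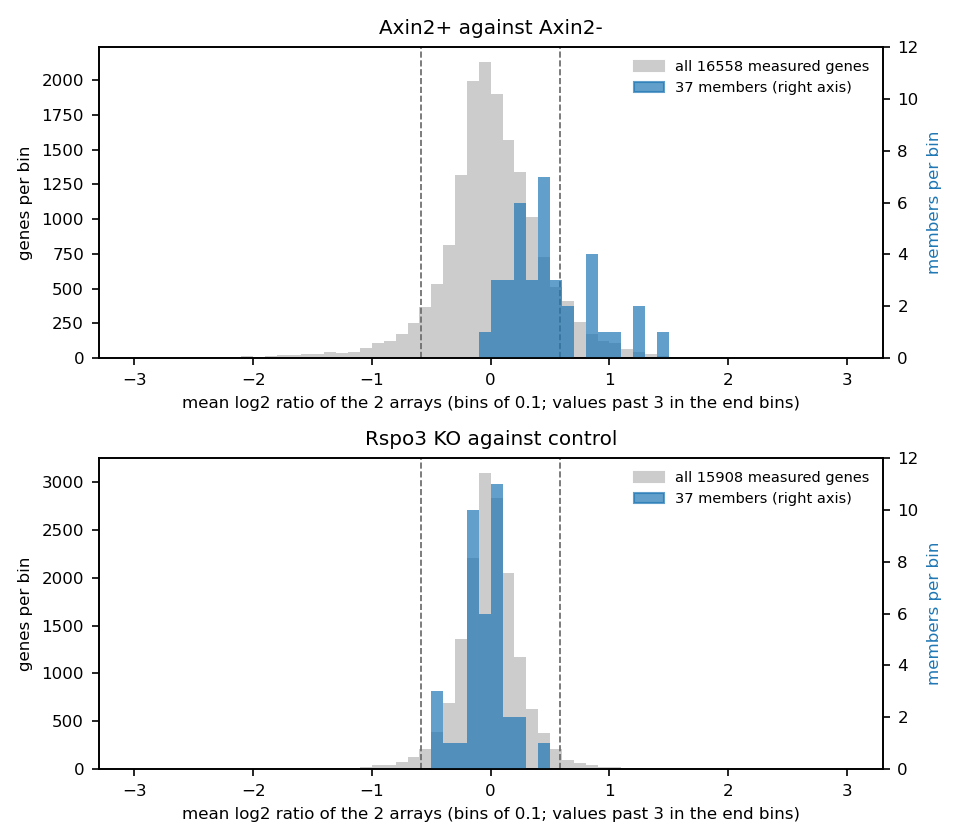
Histograms of the mean log2 ratio (x axis, bins of 0.1) of all measured genes (grey, left axis) and of the 37 members (blue, right axis) in the Axin2 comparison (top) and the Rspo3 KO comparison (bottom), with dashed lines at 1.5-fold. The members lie right of the bulk in the Axin2 comparison (median 0.44 against 0.002) and over the bulk in the Rspo3 KO comparison (-0.044 against -0.012).

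The 8 members with an E-box in the promoter window had a median ratio of 0.38 in Axin2+ cells, with 2 past 1.5-fold (Wdr43 and Tsr1), and the 24 members without the E-box had a median of 0.45, with 6 past 1.5-fold. No test was made of this difference.

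Of 107 further genes of ribosome biogenesis, all measured, 75 were higher on both arrays in Axin2+ cells, 15 were lower on both and 17 went in opposite directions. Past 1.5-fold, 15 were past 1.5-fold higher and 0 lower (14.0%, beside the 7.94% and 6.75% of all genes), with a median of 0.22. The list of 50 large subunit and related factors held 8 of the 15 and had a median of 0.30. The largest ratios were those of Mdn1 (1.03), the giant AAA ATPase that remodels pre-60S particles, Naf1 (0.96), an assembly factor of box H/ACA snoRNPs, Sdad1 (0.95), a 60S export factor, and Rrs1 (0.92) and Rrp15 (0.78), 60S assembly factors. They were followed by Taf1d (0.77), a subunit of the RNA polymerase I promoter factor, the processome gene Wdr46 (0.77) and the exosome gene Exosc2 (0.72). Among the 36 small subunit genes 3 passed, among 11 RNA polymerase I factors 1, and among 10 genes of the rRNA exosome and its partners 3.

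Of 10 genes of the Myc network, 1 was past 1.5-fold higher and 3 were lower in Axin2+ cells. Of all measured genes, 7.94% were past that size higher and 6.75% lower. Mga, a large partner of Max, had ratios of 0.55 and 0.66. Mxd1, which competes with Myc for Max and represses the shared targets, had -2.35 and -2.57, a 5.5-fold lower level, and its dimmer probe had -1.17 and -1.27. Mlx, a Max-like partner, had -0.69 and -0.79, and Max itself -0.49 and -0.69. Of 20 other genes commonly listed as Myc targets, 16 were higher on both arrays and 1 was lower, with a median of 0.38, and 5 were past 1.5-fold higher. They were the mitochondrial chaperone gene Hspd1 (1.15), the cell cycle kinase gene Cdk4 (0.82), Impdh2 (0.72) of guanine nucleotide synthesis, the DNA repair enzyme gene Apex1 (0.62) and Mthfd1 (0.61) of folate metabolism. Ldha, the lactate dehydrogenase gene, was past 1.5-fold lower at -0.66 and -1.17.

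Other cell type markers moved in the same comparison. Of 13 proliferation genes, 12 were past 1.5-fold higher in Axin2+ cells, with a median of 0.91 on array 1 and 0.70 on array 2, and their summed linear level was 26351 and 26071 in Axin2+ against 12651 and 13513 in Axin2- cells. Mki67 had ratios of 1.96 and 2.12. All 8 surface enterocyte genes were past 1.5-fold lower, with medians of -2.99 and -2.76, and their summed level was 38421 and 30941 against 162813 and 139157. Of 7 stem cell genes 6 were higher on both arrays, 5 of them past 1.5-fold, and of 7 goblet cell genes 6 were lower on both, 4 of them past 1.5-fold. In pools of cells, fewer cells of a type and less RNA per cell cannot be told apart, and the part of these shifts in the members' ratios was not tested.

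**Figure D4:**
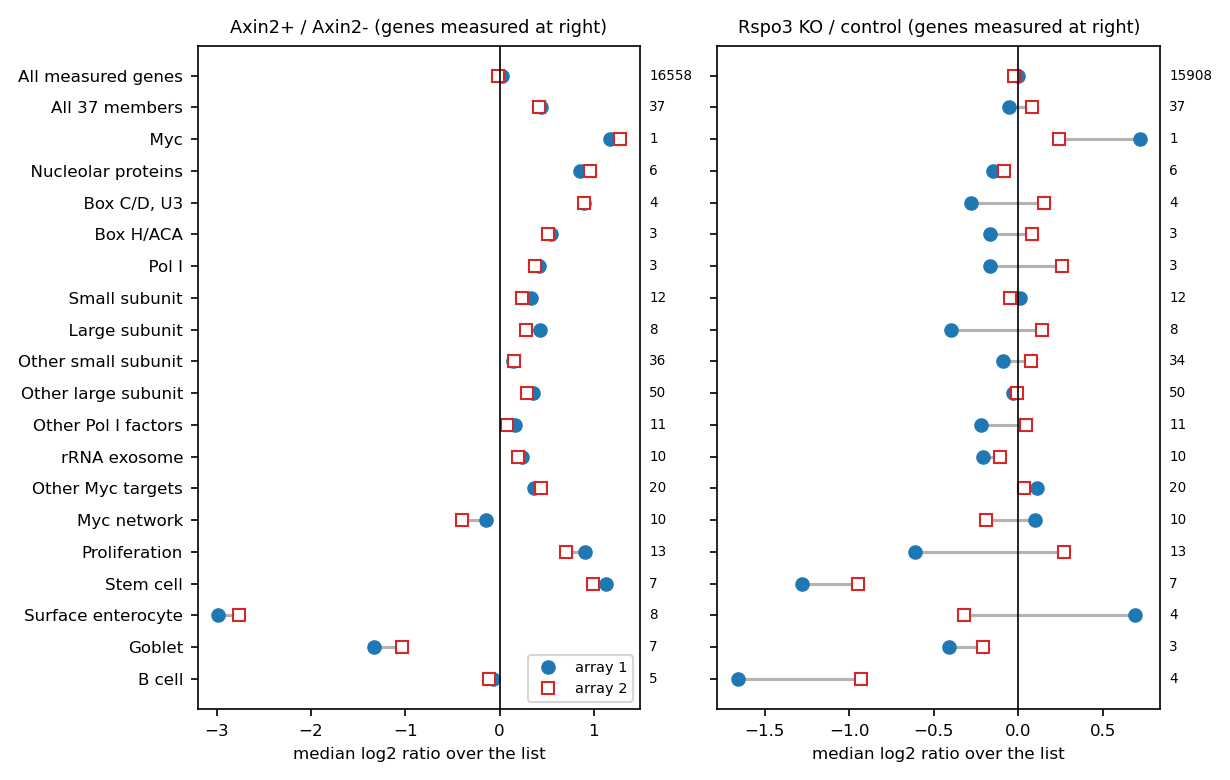
Median log2 ratio (x axis) of each gene list (y axis) on array 1 (circles) and array 2 (squares, dyes reversed), for Axin2+ over Axin2- (left) and Rspo3 KO over control (right), with the number of genes measured at the right of each panel. The x axes differ in range. The 2 arrays lie close together on the left, and on the right the list medians of the 2 pairs often lie on opposite sides of 0, as for the large subunit members and the proliferation genes, but not for the stem cell and B cell lists.

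No member passed the tests in the Rspo3 KO colon. With limma, 0 of 37 members had an adjusted p under 0.05, whereas 0.226% of all measured genes did. An unadjusted limma p under 0.05 was found for 0 members and for 737 of all 15908 measured genes. No member was past 1.5-fold either, against 1.82% of all measured genes higher and 2.47% lower. The mean ratios lay between -0.41 (Ncl) and 0.48 (Myc), and the limma adjusted p was 1 for every member. The SD between the 2 pairs had a median of 0.265 over the members on the log2 scale, against 0.0732 between the 2 dye-swapped Axin2 arrays.

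The pairs disagreed for most members. In 24 of 37 members the pairs went in opposite directions, which 55.7% of all measured genes did. In both pairs 6 members were higher and 7 were lower, against 20.3% and 24% of all measured genes. Counted by probe, 61 of 68 were measured, with 12 higher in both pairs, 13 lower in both and 36 in opposite directions. The median over the members was -0.053 in pair 1 and 0.08 in pair 2. Because the dyes were reversed between the pairs, a difference between pairs and an effect of the dye cannot be told apart.

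**Figure D5:**
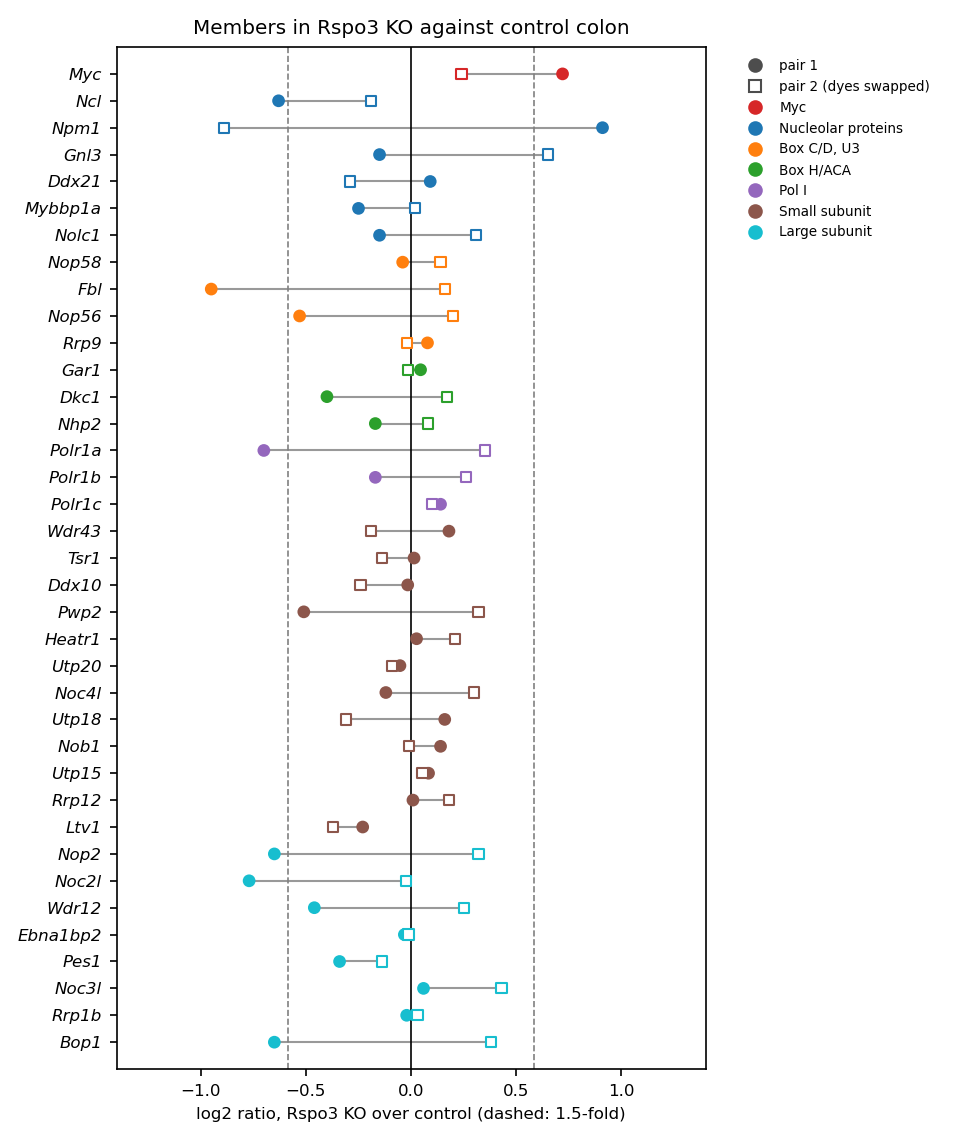
Log2 ratio (x axis) of the 37 members (y axis, in the same order as for the sorted cells) in Rspo3 KO over control colon. Filled circles are pair 1, open squares pair 2 with the dyes reversed, colours give the role, and dashed lines mark 1.5-fold. The 2 pairs lie on opposite sides of 0 for 24 members, and no member is past 1.5-fold in the same direction in both pairs.

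Myc was at a log2 level of 10.29 in control and 11.01 in Rspo3 KO colon in pair 1, and of 10.71 and 10.95 in pair 2. All 3 Myc probes had positive ratios in both pairs, at 0.72 and 0.24, 0.59 and 0.38, and 0.49 and 0.12. The mean of 0.48 ± 0.337 had a limma SE of 0.242 and an adjusted p of 1, so it did not pass the test. Ncl had ratios of -0.63 and -0.19, a mean of -0.41, and its 4 probes did not all share that direction in both pairs. Npm1 was the member with the widest spread, at 0.91 in pair 1 and -0.89 in pair 2. Read as Cy5 over Cy3, both Npm1 values were positive (0.91 and 0.89). With the dyes reversed, that reading gives 1 shared sign to each of the 24 members whose pairs went opposite ways. The second Npm1 probe had 0.05 and -0.56.

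Among the remaining genes with ratios of the same sign in both pairs, Noc3l (0.059 and 0.43), Heatr1 (0.026 and 0.21), Polr1c (0.14 and 0.10), Rrp12 (0.0088 and 0.18) and Utp15 (0.083 and 0.054) were positive. Noc2l (-0.77 and -0.024), Ltv1 (-0.23 and -0.37), Pes1 (-0.34 and -0.14), Ddx10 (-0.016 and -0.24), Utp20 (-0.053 and -0.092) and Ebna1bp2 (-0.032 and -0.012) were negative. The second probes of Noc2l, Ddx10 and Ebna1bp2 were also negative in both pairs, whereas that of Pes1 had 0.48 and -0.10. Ltv1 reached -0.83 with the ratios of the extraction software and was then the only member past 1.5-fold. The other 24 members went in opposite directions, 16 of them lower in pair 1 and higher in pair 2 and 8 the reverse. The former included Fbl (-0.95 and 0.16), Polr1a (-0.70 and 0.35), Bop1 (-0.65 and 0.38), Nop2 (-0.65 and 0.32), Nop56 (-0.53 and 0.20), Pwp2 (-0.51 and 0.32), Wdr12 (-0.46 and 0.25), Dkc1 (-0.40 and 0.17) and Gnl3 (-0.15 and 0.65), which together span all roles but the transcription factor. On the brightest probe of each, none of the box C/D and box H/ACA genes had the same direction in both pairs. The second Nop56 probe had -0.041 and -0.026. The widest gap in the other sense after Npm1 was that of Utp18 (0.16 and -0.31), whose dimmer probe had 0.38 and 0.23.

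Of the 107 further ribosome biogenesis genes, 105 were measured, 0 passed 1.5-fold or an adjusted p of 0.05 with limma, and 0 had an unadjusted p under 0.05, with a median of -0.033. Of the 20 other Myc targets, 0 passed either. In the Myc network, Mxd1 was past 1.5-fold higher (1.19 and 0.51, limma adjusted p = 0.616), and its second probe had 1.2 and 0.57. Mycl1, a Myc paralogue, was past 1.5-fold lower (-1.35 and -0.85, adjusted p = 0.271), as was the Max partner Mxd3 (-0.99 and -0.24, adjusted p = 1). None of the 3 passed the limma test. Past 1.5-fold, 1 of the 10 network genes was higher and 2 were lower, beside 1.82% and 2.47% of all measured genes. Max went in opposite directions, at 1.51 and -0.42.

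In the same arrays, the 13 proliferation genes had a median of -0.61 in pair 1 and 0.27 in pair 2, and 11 of them went in opposite directions. Their summed level was 67065 in Rspo3 KO and 96303 in control in pair 1, and 78937 and 64250 in pair 2. The 7 stem cell genes had medians of -1.28 and -0.95, with 5 past 1.5-fold lower. All 4 measured B cell genes were past 1.5-fold lower, 2 of them not well above background in either Rspo3 KO channel, with a summed level of 736 against 3730 in pair 1 and 778 against 2068 in pair 2. Whether these shifts bear on the members' ratios was not tested. The 2 experiments differ in tissue and slide, so their values for the members stand side by side and the difference between them was not tested.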

How the data were processed

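Dual-colour Agilent whole mouse genome arrays (60-mer probes, 4 arrays) were analysed. The authors extracted the images with Agilent Feature Extraction 11.5.1.1 and deposited, per spot, mean signal and background intensities of Cy3 and Cy5, the log10 ratio of Cy5 over Cy3 and its error. The table of values deposited for the series held the same log10 ratios. The members and gene lists were chosen with earlier results of these data known.

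Intensities were background-corrected by normexp (offset 50, fitted without spots of non-uniform background), normalised by loess within arrays (limma 3.58.1, R 4.3.3), and each ratio was turned to Rspo3 KO over control or Axin2+ over Axin2-. Control spots and outlier spots were left out. Each gene took the values of its brightest probe, which had to exceed background clearly in Cy3 or Cy5 on each array of the experiment. Gene names are those of the newer of 2 annotations in the files, which differ on 4591 spots. Mycl1 is named by the older one. Channel levels were scaled by Aquantile. The Rspo3 KO pairs were tested against 0 with limma and Benjamini-Hochberg adjustment over all genes (threshold 0.05). The Axin2 arrays are a technical dye swap and were not tested. The number of arrays limits the precision. Each p-value sets the mean of 2 pairs against a spread that limma moderates over all genes. The spread shared by all genes weighs more in it (prior degrees of freedom 6.71) than that of the gene's own 2 pairs (1 degree of freedom).

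All 37 members are named. From each of the other lists, up to 8 genes per direction and experiment were named by the size of their change among those past 1.5-fold with the arrays agreeing in direction, with Rspo3, Lgr5, Axin2, Krt20 and Mki67 as checks. Max in the Rspo3 KO colon was named after its values were seen. Alternatives comprised the software ratios, the table of values, other background corrections, median centring, other filters, the mean over probes, error-weighted ratios, a fit of all 4 arrays, a 2-fold threshold and each array alone. The fit was tested on simulated data, in which the changes were larger than any member's mean ratio. How well it finds changes of the members' size was not tested.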

Additional observations from a re-analysis of the deposited data

How the results depend on the processing

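No separate paired analysis was made, because each array already holds 1 pair and its ratio is taken within the pair. With the extraction software's log ratios or the table of values, the genes past 1.5-fold numbered 607 higher and 936 lower in Rspo3 KO colon and 3035 and 2503 in Axin2+ cells, and 1 member (Ltv1) was lower in Rspo3 KO colon. With the background fitted to all spots the Rspo3 KO counts were 175 and 190, and at a 2-fold threshold 84 and 101. Median centring left 572 higher and 600 lower in Axin2+ cells, with 1 member higher, and the 2-fold threshold left 284, 406 and 4 members. The number of genes with a limma adjusted p under 0.05 was 36, and it became 119 with the software ratios or the table of values, 70 without background correction, 127 with an offset of 16, 1 with the background fitted to all spots, 7 with median centring, 0 without a filter on dim probes, 3 with the mean over probes, 0 with error-weighted ratios and 63 with all 4 arrays in 1 fit. It was 0 for the members throughout. The median of the members in Axin2+ cells was 0.44, and it was 0.52 with the software ratios or the table of values, 0.46 without background correction or with an offset of 16, and 0.33 with the mean over probes. With each array alone it was 0.42 to 0.44, with 10 to 12 members past 1.5-fold higher, and 1357 to 1392 of all genes higher and 1073 to 1273 lower. With each Rspo3 KO pair alone, 699 to 1291 genes were past 1.5-fold higher and 915 to 1170 lower, 1 to 2 members higher and 1 to 6 lower, and the members' median lay between -0.053 and 0.08. The cause of these differences was not tested. Of the single members' values, 340 of 407 in the Axin2 comparison and 460 of 481 in the Rspo3 KO comparison moved by less than the SD of their 2 arrays. No member past 1.5-fold changed sign. These counts include settings that could not move a member's value by that much. They are each array alone, the filters on dim probes and, for Rspo3 KO, the error-weighted ratios and the fit of all 4 arrays. In the Axin2 comparison, the background fitted to all spots is another. The counts are therefore no measure of how stable the values are.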
